A study of Mus musculus with 10 samples.

Results

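The genes described here are 3 lipins and 6 further enzymes of glycerolipid synthesis, 9 of the 43629 genes in the count table. They were listed by name as Lpin1, Lpin2, Lpin3, Gpam, Gpat4, Agpat2, Agpat3, Dgat1 and Dgat2, and the list was drawn up with earlier results of the same comparison known. Their values in that comparison are therefore a description and carry no test. All 9 passed the filter on low counts that left 14143 genes for testing. The lowest count of any of them in any liver was 141, for Lpin3.

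Livers came from male KL mice, 5 in the NCACS and 5 in the CACS group, an inducible model of lung cancer that carries Lkb1 flox/flox on an FVB background. Tumours were induced in adult mice by intranasal adenovirus carrying Cre under the CMV promoter, so both groups carried tumours and there was no group without them. CACS stands for cancer anorexia-cachexia syndrome, and NCACS for KL mice without it. The body weight of NCACS mice 11, 12, 13, 14 and 15 had changed by -4, -8, -11, -3 and -14%, and that of CACS mice 16, 17, 18, 19 and 20 by -32, -29, -33, -30 and -29%. Poly(A) RNA was counted per gene, and each library held between 31459179 and 40746178 counts. The labels give neither the time of day at which a liver was taken, nor the feeding state, nor a preparation batch. The separate mice are the replicates, and error values measure the spread between them.

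Triglycerides and most membrane phospholipids of the liver are built on a glycerol-3-phosphate backbone. Acyltransferases add fatty acids in turn to give lysophosphatidic acid and phosphatidic acid, lipins remove the phosphate to give diacylglycerol, and diacylglycerol acyltransferases add the last fatty acid to give triglyceride. Diacylglycerol is also the substrate for phosphatidylcholine and phosphatidylethanolamine, whereas phosphatidic acid can instead enter the branch that leads to cardiolipin. Lipin 1 is known for a further role in the liver, as a nuclear coactivator of genes for fatty acid oxidation, and its gene is known to respond to fasting and glucocorticoids.

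The livers were first checked against markers of the labelled tissue and of other cells. The summed level of 8 hepatocyte markers was between 74180 and 120564 CPM (TMM-normalised counts per 1000000 counts) in NCACS livers and between 112899 and 137738 CPM in CACS livers, with 5 markers higher and 3 lower in CACS livers. All 7 Kupffer cell and leukocyte markers were lower in CACS livers, with sums of 194 to 350 CPM against 117 to 224 CPM, and 1 of them (Cd5l) passed the test. All 6 skeletal muscle markers were also lower, at 27.5 to 136 CPM against 10.8 to 47.8 CPM, and none passed it, although 6 had an unadjusted p under 0.05 from the same edgeR fit, as had 3051 of all tested genes (21.6%). The part of these markers in the values below was not tested. In bulk tissue, fewer cells of a type and less RNA per cell cannot be told apart. NCACS mouse 15 stood apart in its clock genes, with a summed level of 329 CPM over 15 genes against 657 to 1003 CPM in the other 9 livers.

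Lpin1 was the member that differed most between the groups, and it was higher in CACS livers. In all, 538 genes, or 3.8% of those tested, had a Benjamini-Hochberg adjusted p under 0.05 in the quasi-likelihood test of edgeR, and 267 genes (1.89%) passed it as higher in CACS livers. Among the 9 members 1 passed as higher (Lpin1) and 0 passed as lower. With the members selected on this contrast, nothing is read from that count. By log2 fold change, 5 members were above 0 and 4 below, with a median of 0.08 against -0.01 over all 14143 genes. Between Gpam at -0.59 and Lpin1 at 2.33, the other members lay from -0.16 to 0.51.

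**Figure D1:**
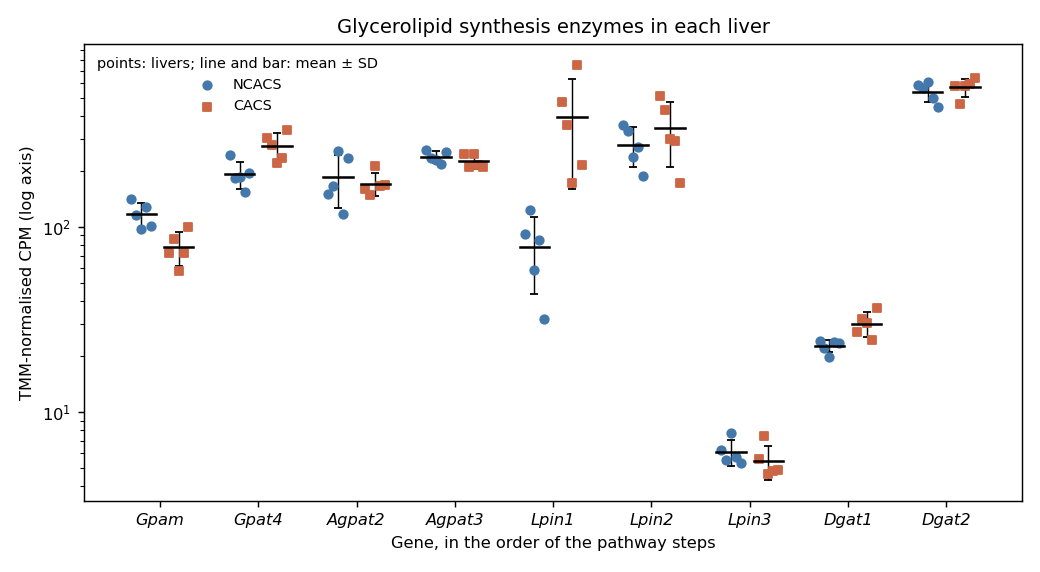
TMM-normalised CPM (log axis) of the 9 genes in each of 5 NCACS (circles) and 5 CACS (squares) livers, with horizontal lines at the group means and bars of 1 SD. Lpin1 and Dgat1 are the genes whose groups do not overlap, and Dgat2 has the highest values and Lpin3 the lowest.

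Glycerol-3-phosphate acyltransferases take the first step, and Gpam and Gpat4 differed between the groups in opposite directions. Gpam encodes the enzyme of the outer mitochondrial membrane, and Gpat4 one of the endoplasmic reticulum. Gpam (ENSMUSG00000024978, chr19:55067268-55127238 of GRCm38, reverse strand) was measured at 141, 116, 97.9, 127 and 102 CPM in NCACS mice 11 to 15. In CACS mice 16 to 20 it was 72.1, 85.6, 57.9, 72.3 and 99.8 CPM. The groups overlapped through CACS mouse 20 alone, since the other 4 CACS livers lay below all NCACS livers. The mean was 117 ± 17.98 CPM in the NCACS group and 77.6 ± 15.8 CPM in the CACS group (SD, n = 5 each), giving a log2 fold change of -0.59 with a standard error of 0.15. The threshold was missed in the edgeR fit, but reached with DESeq2, with RLE factors, with a stricter count filter and without CACS mouse 20, where the log2 fold change was -0.70.

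Gpat4 (ENSMUSG00000031545, chr8:23171265-23208346, reverse strand) was measured at 244, 184, 186, 154 and 195 CPM in NCACS livers. In CACS livers it was 303, 278, 221, 236 and 332 CPM. The overlap came from NCACS mouse 11, whose value was above those of CACS mice 18 and 19, and 3 CACS livers lay above all NCACS livers. The log2 fold change was 0.51 with a standard error of 0.15, from a mean of 192 ± 32.9 CPM (SD, n = 5) to 274 ± 46.2 CPM (SD, n = 5). It passed the threshold with DESeq2 alone among the alternatives.

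Set against each other within a liver, the pair did not overlap between the groups. Both genes were listed with this contrast known and differed in opposite directions, so their ratio is a description and was not tested. The log2 ratio of Gpam to Gpat4, per kilobase of merged exon, lay between -0.93 and -0.27 in NCACS livers and between -2.06 and -1.69 in CACS livers. Its mean was -0.71 ± 0.27 in the NCACS group and -1.82 ± 0.17 in the CACS group (SD, n = 5 each). Gpam was thus the lower of the pair in all 10 livers on this scale, and by more in each CACS liver than in any NCACS liver.

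The acylation of lysophosphatidic acid to phosphatidic acid is represented by Agpat2, the isoform whose loss causes congenital lipodystrophy, and Agpat3. Agpat2 (ENSMUSG00000026922, chr2:26593057-26604417, reverse strand) was measured at 152, 167, 258, 118 and 235 CPM in NCACS livers and at 160, 149, 213, 166 and 169 CPM in CACS livers. NCACS livers held both the lowest and the highest values, and all CACS livers lay inside that range. The log2 fold change of Agpat2 was -0.12 with a standard error of 0.20, and it was 0.03 without NCACS mouse 13. Its exons share 64 bases with those of Egfl7 on the opposite strand, which had 508 to 918 counts per liver against 3912 to 7978 for Agpat2.

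Agpat3 (ENSMUSG00000001211, chr10:78269178-78352489, reverse strand) varied least among the 9 genes. It lay between 219 and 260 CPM in NCACS livers and between 210 and 249 CPM in CACS livers, with coefficients of variation of 7.08% and 8.86%. The log2 fold change was -0.08 with a standard error of 0.10. The ratio of Agpat2 to Agpat3 overlapped between the groups, with means of 1.45 ± 0.44 (SD, n = 5) and 1.46 ± 0.16 (SD, n = 5) on the log2 scale per kilobase.

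Lpin1 encodes lipin 1, a phosphatidic acid phosphatase, and lies at chr12:16535669-16610966 on the reverse strand (ENSMUSG00000020593). It was measured at 92.2, 124, 58.2, 85.5 and 31.9 CPM in NCACS mice 11 to 15. In CACS mice 16 to 20 it was 476, 356, 172, 753 and 216 CPM. The groups did not overlap, which was so for 1000 of the 14143 tested genes (7.07%), and the lowest CACS liver (mouse 18) was above the highest NCACS liver (mouse 12). The spread inside each group was wide, with a coefficient of variation of 44.7% in NCACS livers and 59.1% in CACS livers, against a median of 15.7% over the 9 genes in NCACS livers.

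The mean of Lpin1 was 78.4 ± 35.0 CPM in the NCACS group and 395 ± 233 CPM in the CACS group (SD, n = 5 each), a ratio of 5.03. Its log2 fold change of 2.33, with a standard error of 0.44, was the 17th highest of the 14143 genes tested. The call was present with each liver left out in turn, where the log2 fold change ran from 1.96 without CACS mouse 19 to 2.56 without NCACS mouse 12. Without NCACS mouse 15, which stood apart in its clock genes and had the lowest Lpin1, it was 2.13. In some of these fits the threshold was passed only narrowly. The highest Benjamini-Hochberg adjusted p was 0.0496, without CACS mouse 16 (edgeR quasi-likelihood). Because Lpin1 was listed with this contrast known, the fits describe its spread over livers and are no independent test.

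Lpin1 is also known to be abundant in adipose tissue and muscle, so markers of those cells are given beside it. The 8 adipocyte markers summed to 23.6 to 45.0 CPM in NCACS livers and 29.4 to 41.6 CPM in CACS livers, overlapping ranges, and 5 of the 6 tested were higher in CACS livers with none past the threshold in edgeR's test (2 had an unadjusted p under 0.05). The median log2 fold change of those tested was 0.55. Adipoq, which defines fat cells, had 1 to 96 counts per liver, Lep 0 to 21 and Plin1 0 to 22, against 1033 to 26716 counts of Lpin1. The rest of the list had 6 to 152 (Cfd), 2 to 27 (Retn), 80 to 225 (Cidec), 144 to 514 (Fabp4) and 366 to 795 counts (Lipe). The muscle markers were lower in CACS livers, as given above. The highest muscle sum, 136 CPM, was in NCACS mouse 11, whose Lpin1 was 92.2 CPM. The part of adipose or muscle RNA in the level of Lpin1 was not tested.

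Lpin2 (ENSMUSG00000024052, chr17:71182560-71249817, forward strand) encodes the lipin that predominates in liver. It was measured at 356, 330, 239, 272 and 190 CPM in NCACS livers and at 510, 428, 300, 291 and 174 CPM in CACS livers. CACS livers held the highest values (mice 16 and 17) and also the lowest (mouse 20). The log2 fold change was 0.30 with a standard error of 0.26. Lpin3 (ENSMUSG00000027412, chr2:160880670-160906002, forward strand), the least studied lipin, was low in all livers at 4.60 to 7.66 CPM, with a log2 fold change of -0.16 and a standard error of 0.17. An antisense gene within its span, Gm16751, had 1 to 7 counts and shares no exon with it.

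The share of Lpin1 among the lipin transcripts separated the groups, whereas their sum did not. Per kilobase of merged exon, Lpin1 made up 23.6, 31.1, 21.8, 27.1 and 16.3% of the summed level of the 3 lipins in NCACS mice 11 to 15. In CACS mice 16 to 20 it made up 53.3, 49.9, 40.9, 75.6 and 59.0%. The groups did not overlap, and the mean share went from 24.0 ± 5.58% (SD, n = 5) to 55.7 ± 12.9% (SD, n = 5). Lpin2 made up 70.6 ± 4.27% of the sum in the NCACS group and 41.9 ± 12.5% in the CACS group (SD, n = 5 each). Like Lpin1 itself, these shares were chosen by the contrast and were not tested.

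The sum of the 3 lipins, as CPM divided by the kilobases of merged exon (RPKM), was 40.3, 41.3, 27.6, 32.6 and 20.2 in NCACS livers and 92.4, 73.8, 43.6, 103 and 37.9 in CACS livers. CACS mouse 20 lay below NCACS mice 11 and 12, so the groups overlapped. Its mean was 32.4 ± 8.86 RPKM in the NCACS group and 70.2 ± 28.9 RPKM in the CACS group (SD, n = 5 each).

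**Figure D2:**
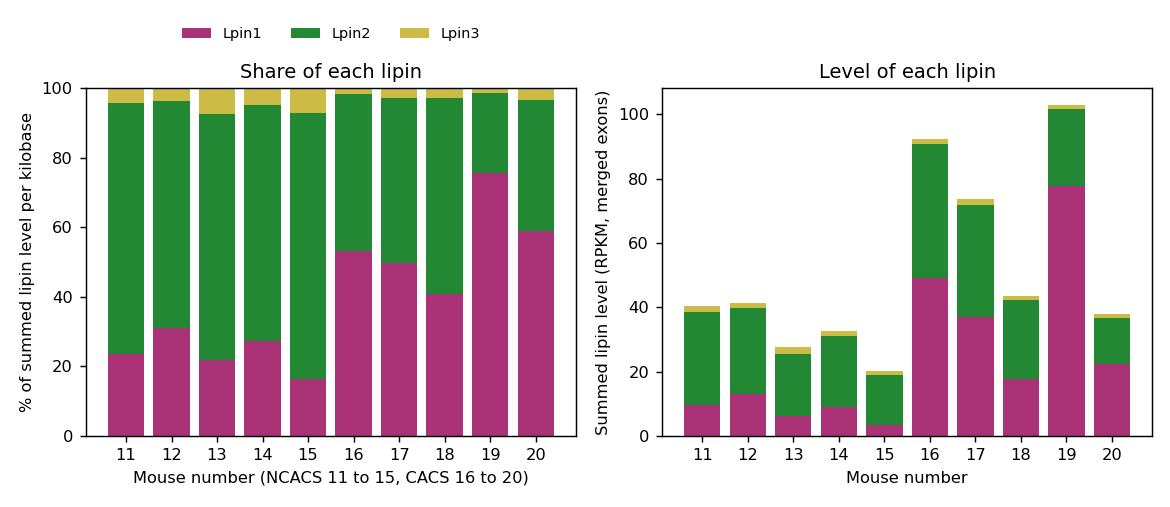
Left, share of each lipin (%) in the summed lipin level per kilobase of merged exon for each liver. Right, the same levels in RPKM. Lpin1 makes up 16.3 to 31.1% in NCACS mice 11 to 15 and 40.9 to 75.6% in CACS mice 16 to 20, and the summed level overlaps between the groups.

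Dgat1 and Dgat2 encode the unrelated enzymes that finish triglyceride synthesis, Dgat2 being the one tied to newly made fatty acids in liver. Dgat1 (ENSMUSG00000022555, chr15:76502015-76511953, reverse strand) was measured at 24.2, 22.3, 19.95, 23.9 and 23.7 CPM in NCACS livers and at 27.0, 31.8, 30.3, 24.5 and 36.5 CPM in CACS livers. The groups did not overlap, but only narrowly, since CACS mouse 19 and NCACS mouse 11 differed by less than 1 CPM. The mean was 22.8 ± 1.76 CPM in the NCACS group and 30.0 ± 4.62 CPM in the CACS group (SD, n = 5 each), giving a log2 fold change of 0.40 with a standard error of 0.11. Dgat1 passed the threshold over all genes with DESeq2 and not with edgeR.

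Dgat2 (ENSMUSG00000030747, chr7:99153658-99182719, reverse strand) lay between 445 and 604 CPM in NCACS livers and between 463 and 639 CPM in CACS livers. The groups covered nearly the same range, with a log2 fold change of 0.08 and a standard error of 0.13. The ratio of Dgat1 to Dgat2 per kilobase overlapped between the groups, at a mean of -4.54 ± 0.27 (SD, n = 5) and -4.24 ± 0.28 (SD, n = 5) on the log2 scale.

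**Figure D3:**
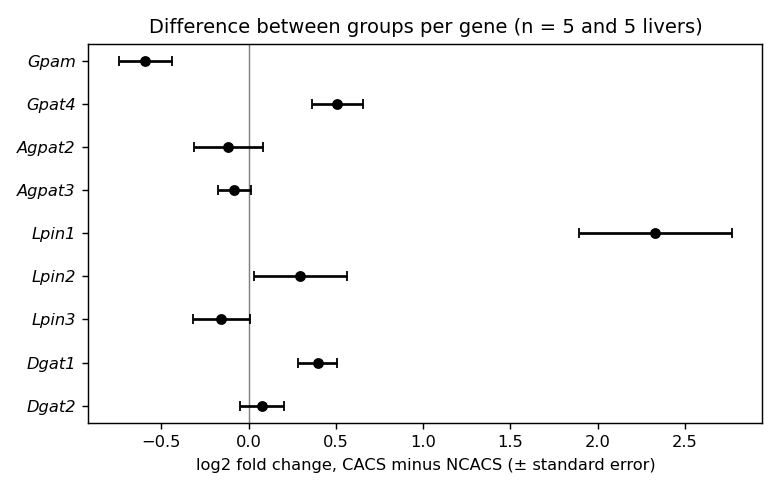
Log2 fold change of each gene, CACS minus NCACS, with bars of 1 standard error from the edgeR fit over 5 and 5 livers. Lpin1 lies at 2.33, Gpat4 and Dgat1 at 0.51 and 0.40, and Gpam at -0.59.

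As a level per kilobase of merged exon, the order in NCACS livers ran from Dgat2 at 175 ± 21.6 RPKM (SD, n = 5) through Agpat2 at 87.2 ± 27.5 RPKM to Lpin3 at 1.64 ± 0.26 RPKM. Agpat3, Gpat4, Lpin2 and Gpam followed Agpat2 at 30.8, 28.8, 22.7 and 17.5 RPKM, and Lpin1 and Dgat1 preceded Lpin3 at 8.11 and 7.47 RPKM. Of the neighbours in that order, Agpat3 and Gpat4, Gpat4 and Lpin2, and Lpin1 and Dgat1 did not differ by more than 1 SD of their log2 ratio over the 5 livers. In CACS livers Lpin1 stood in 4th place at 40.8 ± 24.1 RPKM (SD, n = 5), where it had been 7th. There it could not be separated in this way from Gpat4 above it or Agpat3 below it. The order depended on the length used. With the longest transcript in place of merged exons, Lpin2 moved from 5th to 3rd place in NCACS livers at 49.2 RPKM, above Agpat3 at 40.1 and Gpat4 at 34.9 RPKM. Lpin1 was then at 14.1 RPKM and Dgat1 at 12.1 RPKM in NCACS livers, with Lpin1 again 7th, and in CACS livers Lpin1 was 3rd.

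How the genes varied from mouse to mouse inside a group was not used to choose them, and was tested against weight change. The slope of log2 CPM on weight change was taken after removal of the group means, with a two-sided exact permutation test over 14400 within-group pairings and adjustment over all 14143 tested genes. An exact permutation p under 0.05 was reached by 948 genes (6.7%), 2 of them members, and 0 genes in the table had an adjusted p under 0.05 (the lowest was 0.357). Gpam had a slope of 0.06 per percent of body weight (exact permutation p = 0.00347, adjusted p = 0.491), meaning lower Gpam in mice that had lost more weight. The slope had the same sign in both groups, at 0.04 in NCACS and 0.14 in CACS livers. Mice 14 and 15 lay farthest from the median weight change once the group means were removed. Without them the slope was 0.10 (exact permutation p = 0.00833, n = 8).

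Agpat2 sloped the other way, at -0.09 per percent of body weight (exact permutation p = 0.0131, adjusted p = 0.632), with -0.09 in NCACS and -0.08 in CACS livers. Without mice 14 and 15 its slope was -0.10 (exact permutation p = 0.0389, n = 8). The slope of Lpin1 was 0.12 (exact permutation p = 0.111, adjusted p = 0.778), and 0.06 without NCACS mouse 15. The other 6 genes had slopes from -0.01 to 0.04, with exact permutation p-values between 0.194 and 0.827.

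**Figure D4:**
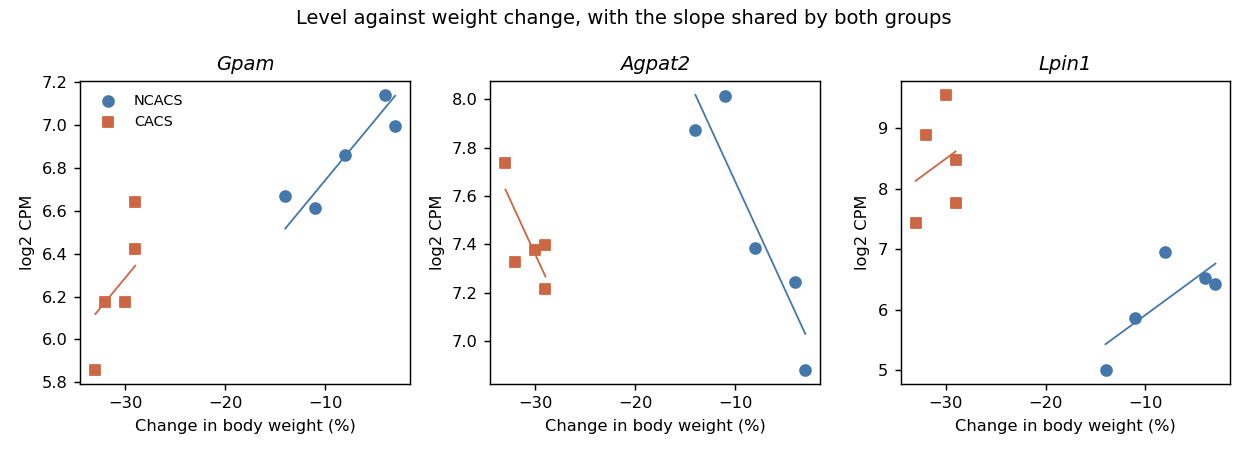
Log2 CPM of Gpam, Agpat2 and Lpin1 against the change in body weight (%) for each NCACS (circles) and CACS (squares) liver, with lines of the slope shared by both groups drawn through each group's mean. The slopes are 0.06, -0.09 and 0.12 per percent, and no adjusted p over all genes is under 0.05.

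Between the members, deviations from the group means over the 10 livers were correlated above 0.5 for 3 of 36 pairs and below -0.5 for 3. These correlations share libraries and are given without a test. Gpam went with Dgat1 (r = 0.61) and Gpat4 (r = 0.60), and Lpin1 with Lpin2 (r = 0.59). Agpat2 went against Gpam (r = -0.69) and Lpin1 (r = -0.58), and Lpin1 against Dgat1 (r = -0.52). Gpam and Gpat4, which differed in opposite directions between the groups, thus went together in deviations pooled over both groups. Not every liver followed this. NCACS mouse 14 had the lowest Gpat4 (154 CPM) but Gpam (127 CPM) above the NCACS mean (117 CPM).

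Among tested genes that averaged 5 CPM or more, the 5 whose deviations were most like those of Lpin1 were Srcap (r = 0.95), Phf2 (r = 0.94), Prrc2b (r = 0.93), Midn (r = 0.92) and Gtpbp1 (r = 0.91), over the same 10 livers. They are the top of a search over all such genes in few livers, and these correlations were not tested against such a search. Srcap, a chromatin remodelling ATPase, had a log2 fold change of 0.28 between the groups, and the others lay between -0.10 and 0.07. None of the 5 passed the threshold in the edgeR fit (Benjamini-Hochberg adjusted p of 0.0964 to 0.931, 1 with an unadjusted p under 0.05).

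Clock genes were set beside Lpin1 because the time of collection was not given. With group means removed, Lpin1 went with the clock repressor Per1 (r = 0.78) and against the activator Arntl (r = -0.77). It also went with the clock output factor Dbp (r = 0.71), each over 10 livers. Other genes of the same roles differed from these, with the repressor Cry1 at -0.65, the output factor Hlf at 0.15 and the activator Clock at -0.37. Bhlhe41, Ciart, Nr1d2, Tef, Per3, Nr1d1, Per2 and Cry2 lay from 0.47 to 0.75, and Npas2 was at -0.31. These correlations are given without a test. Mouse 15 had the lowest Lpin1, Per1 (5.84 CPM) and Dbp (1.27 CPM) and the highest Arntl (33.8 CPM). CACS mouse 19 had the highest Lpin1 and the lowest Arntl (0.958 CPM).

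Per1 was 5.84 to 66.8 CPM in NCACS livers and 40.6 to 131 CPM in CACS livers, and Dbp 1.27 to 82.9 CPM and 18.8 to 58.8 CPM. Both overlapped between the groups. Of the 15 clock genes 7 were higher and 8 lower in CACS livers, none passed the threshold in edgeR's test, and 5 had an unadjusted p under 0.05, beside 21.6% of all tested genes. Their part in the level of Lpin1 was not tested.

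**Figure D5:**
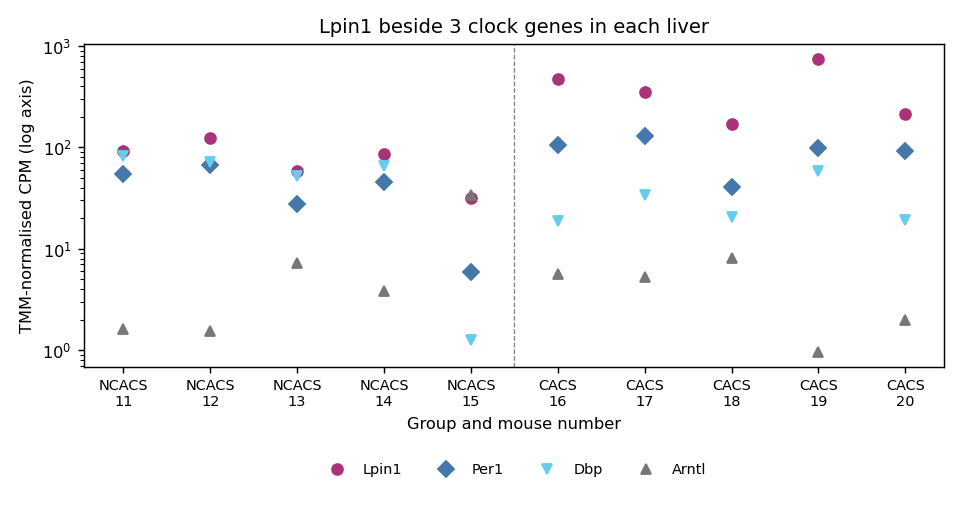
TMM-normalised CPM (log axis) of Lpin1, Per1, Dbp and Arntl in each liver, NCACS to the left of the dashed line. Mouse 15 has the lowest Lpin1, Per1 and Dbp and the highest Arntl, and Lpin1 is higher in all 5 CACS livers than in any NCACS liver.

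Promoter sequences are shown for the members with the largest differences in either direction, Lpin1 and Gpam. They are RefSeq windows on GRCm38.p6, 250 bases before to 50 after a start site, and 6 of the 9 members had an entry. Both are printed 5′ to 3′ on the gene's strand. In the Lpin1 window, chr12:16610917-16611216 on the reverse strand, capitals mark a glucocorticoid receptor half-site (AGAACA, here as its reverse complement) at position -163 from the start site. In the Gpam window, chr19:55127189-55127488 on the reverse strand, capitals mark an NF-Y box (CCAAT, likewise reversed) at position -74.
Lpin1: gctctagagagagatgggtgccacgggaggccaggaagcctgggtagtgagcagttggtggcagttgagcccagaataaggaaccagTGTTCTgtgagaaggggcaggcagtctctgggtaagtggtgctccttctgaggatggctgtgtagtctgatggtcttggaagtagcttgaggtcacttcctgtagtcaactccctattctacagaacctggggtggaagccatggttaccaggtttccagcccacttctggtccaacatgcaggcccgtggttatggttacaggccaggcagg
Gpam: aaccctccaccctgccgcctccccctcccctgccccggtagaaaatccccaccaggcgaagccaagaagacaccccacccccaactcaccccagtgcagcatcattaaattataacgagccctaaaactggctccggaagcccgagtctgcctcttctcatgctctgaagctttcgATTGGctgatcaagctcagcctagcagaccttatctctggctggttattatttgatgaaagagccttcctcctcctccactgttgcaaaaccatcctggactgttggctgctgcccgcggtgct
AGAACA occurs on either strand in 18.97% of 32851 promoter windows of this length, and CCAAT in 37.4%. Among the members, AGAACA was also in the third Lpin2 window (position -203) and the first Lpin3 window (position -245), and CCAAT was in the third Lpin2 window at 3 positions.

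The short stretches below show where the first Lpin2 and Lpin3 windows hold the E-box bound by clock and basic helix-loop-helix factors (CACGTG, its own reverse complement, in capitals). They lie at chr17:71183503-71183548 and chr2:160880672-160880717, both on the forward strand.
Lpin2: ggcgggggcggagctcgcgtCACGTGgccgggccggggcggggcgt
Lpin3: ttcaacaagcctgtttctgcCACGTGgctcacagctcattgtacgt
The E-box occurs in 7.15% of all windows, and its letters were not in the Lpin1 window. A GC box (GGGCGG, in 35.7% of windows) was found in windows of Lpin2, Lpin3, Gpam and Agpat2. A sterol element (TCACNCCAC, in 1.24%), a cyclic AMP element (TGACGTCA, in 1.79%), a D-box (TTATGNAA, in 3.38%) and a STAT motif (TTCNNNGAA, in 8.3%) were found in none of the 10 windows of the 6 members with an entry. Gpat4, Dgat1 and Dgat2 had no window and were not searched. A match is a run of letters, and binding was not measured.

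The other genes of the pathway gave no call. The list held 51 genes, 42 of which could be tested. In CACS livers 22 of these were higher and 20 were lower, and their log2 fold changes had a median of 0.02, against -0.01 over all genes. None passed the threshold in edgeR's test over all genes, where 3.8% of the table did, and 11 of the 42 had an unadjusted p under 0.05, where 21.6% of the table did. DESeq2, which called 1386 of 13859 genes (10%), called Aqp9 and Mogat1.

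Aqp9, the channel by which hepatocytes take up glycerol, was lower in every CACS liver than in any NCACS liver, at 371 ± 21.97 CPM (SD, n = 5) against 480 ± 53.1 CPM (SD, n = 5). Its log2 fold change was -0.37 (Benjamini-Hochberg adjusted p = 0.0721, edgeR quasi-likelihood). Gk, the glycerol kinase that makes glycerol-3-phosphate, stood at 0.31 on the log2 scale (adjusted p = 0.398, edgeR). Mogat1, a monoacylglycerol acyltransferase named after its values were seen, was scarce, its mean being 0.932 CPM in the NCACS group and 0.183 CPM in the CACS group (log2 fold change -2.41, adjusted p = 0.0932 from edgeR).

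Among 8 other acyltransferases 3 were higher and 5 lower, with Agpat4 at 0.46 and Agpat5 at 0.39 on the log2 scale (adjusted p = 0.316 and 0.174, edgeR). The 6 tested genes for other phosphatases and lipin control divided evenly, 3 higher and 3 lower, and included the lipid phosphate phosphatases Plpp1 and Plpp2 at log2 fold changes of 0.37 and 0.36 (adjusted p = 0.151 and 0.211, edgeR). Without CACS mouse 18, Plpp1 (0.48) and Mogat1 (-3.61) passed the threshold.

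Downstream of diacylglycerol, 7 of 10 phosphatidylcholine and phosphatidylethanolamine genes were lower. They included the final transferases Selenoi at -0.44 and Chpt1 at -0.37 on the log2 scale (adjusted p = 0.113 and 0.207, edgeR). In the branch from phosphatidic acid to cardiolipin 6 of 7 genes were higher, with Pgs1 at 0.26 and Crls1, the cardiolipin synthase, at 0.24 (adjusted p = 0.441 and 0.403, edgeR). Of 6 diacylglycerol kinases, which turn diacylglycerol back into phosphatidic acid, 5 were higher, with Dgkq at 0.29 and Dgke at 0.25 (adjusted p = 0.109 and 0.458, edgeR). In the order given, these lists had median log2 fold changes of -0.05, 0.10 and 0.20. An unadjusted p under 0.05 (edgeR) was reached by 2 of the 10, 0 of the 7 and 1 of the 6 genes, beside 21.6% of all tested genes. Over the 6 lists of other pathway genes the median log2 fold changes ran from -0.15 to 0.20.

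Of 13 regulators of these genes 5 were higher and 8 lower in CACS livers, and 1 passed the threshold. Hnf4a, a nuclear receptor that sets hepatocyte identity and is also among the hepatocyte markers, rose from 632 ± 42.5 CPM (SD, n = 5) to 891 ± 116 CPM (SD, n = 5) without overlap. Its log2 fold change was 0.50 with a standard error of 0.12 (Benjamini-Hochberg adjusted p = 0.0435, edgeR quasi-likelihood), and it lost the call with no count filter and in 9 of the 10 fits with a liver left out, all but that without CACS mouse 18. Cebpb, an acute-phase and adipogenic transcription factor, stood at 0.62 on the log2 scale (adjusted p = 0.149, edgeR).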

How the data were processed

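RNA-seq was made from the livers of male KL mice, 5 in the NCACS and 5 in the CACS group. The full genotype of the mice is not reported here. The authors made stranded poly(A) libraries, and the submitters' processing notes name STAR 2.4.1d, HTSeq 0.6.1 and GRCm38. The deposited table holds raw, unnormalised counts, 1 row for each Ensembl gene. The annotation release and the strand setting are not given in the sources used here, so genes with overlapping exons on the opposite strand are uncertain. Symbols, positions and exon lengths were taken from GENCODE M21, which lacked 1081 of the 43629 identifiers.

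The counts were analysed with edgeR 4.0.16 in R 4.3.3 (filterByExpr, TMM factors between 0.958 and 1.07, quasi-likelihood test, Benjamini-Hochberg threshold 0.05), with the 10 livers in 1 fit and no covariate. Log2 CPM used a prior count of 2. Depth limits Lpin3 most among the members, and precision is set by the number of mice. No libraries of a group were duplicates (smallest chi-square per degree of freedom 46.1). Groups, mouse numbers and weight changes came from the sample labels. Members and gene lists were chosen with earlier results of these data known, so no set test and no p-value adjusted over the members alone is given, and the slopes on weight change were adjusted over all tested genes, not over the 9 members as first planned. Named were all members, list genes past the threshold, the 2 largest differences per pathway and regulator list at a mean of at least 1 CPM, and the 5 genes most like Lpin1. The slope test was checked on simulated rows with a known slope, and the fits on simulated counts, where 200 genes had been altered 4-fold and edgeR recovered 93.5% over 13977 genes with 4.59% of its calls false and DESeq2 95.5% with 17.7% false. Changes smaller than 4-fold were not simulated, so recovery at the size seen for members other than Lpin1 is not known. Alternatives were DESeq2 1.42.0, limma-voom (limma 3.58.1), a robust fit, RLE and upper-quartile factors, raw totals, the unfiltered table, a minimum of 10 counts per liver, a prior count of 0.5, transcript length for levels, and each liver left out.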

Additional observations from a re-analysis of the deposited data

Results flagged for a closer look

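Over both groups, 2 of 44 combinations of a group and a measure held a liver far from the other 4, where chance alone gives about 1 in 20. Both were in the NCACS group. The summed skeletal muscle markers were highest in mouse 11, with a gap to the next liver of 0.831 of the group's range on the log2 scale, against a critical value of 0.71. The summed cholangiocyte markers were highest in mouse 12, with a gap of 0.807 of the range. Lpin1 was 92.2 and 124 CPM in mice 11 and 12, the upper values of the NCACS group. The log2 fold change of Lpin1 was 2.396 without NCACS mouse 11 and 2.56 without NCACS mouse 12, and it passed the threshold in both fits. No member's own values were flagged in either group.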

How the results depend on the processing

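Lpin1 passed the threshold in all 18 alternative fits, with log2 fold changes between 1.96 and 2.56, but only narrowly in some of those with a liver left out. These fits reuse the livers of the contrast that was known when Lpin1 was listed. They describe the dependence on processing and give no independent support. DESeq2 called 1386 of 13859 genes (10%), against 538 of 14143 (3.8%) with edgeR. In the simulated counts 17.7% of the DESeq2 calls were false, against 4.59% for edgeR. DESeq2 called 3 members higher (Lpin1, Gpat4 and Dgat1) and 1 lower (Gpam), and called 2 other pathway genes. With the members selected on this contrast, nothing is read from their count. With RLE factors and with at least 10 counts in every liver, 1 member was called lower (Gpam). With a liver left out, the table held between 178 calls (without NCACS mouse 11) and 519, and fell by more than 1.5 times in 8 of the 10 fits (178, 281, 301, 208 and 285 without NCACS mice 11 to 15, and 192, 206 and 228 without CACS mice 16, 19 and 20). Members called lower then numbered 0 to 1 and other pathway genes 0 to 2, whereas members called higher stayed at 1 and members with an adjusted slope call at 0. The log2 fold change of Agpat2 turned from -0.12 to 0.031 without NCACS mouse 13. Slopes turned below 0 for Lpin2 (-0.0028), Lpin3 (-0.012) and Dgat2 (-0.022) without NCACS mouse 15, for Lpin3 without CACS mouse 17 (-0.0018), and for Gpat4 without NCACS mouse 11 (-0.014) or CACS mouse 18 (-0.0020). The ranges with a liver left out were -0.24 to 0.031 for the Agpat2 fold change and, for the slopes, -0.0028 to 0.057 (Lpin2), -0.012 to 0.023 (Lpin3), -0.014 to 0.039 (Gpat4) and -0.022 to 0.022 (Dgat2). The cause was not tested, apart from the smaller number of livers by construction. No paired analysis was possible because mouse numbers 11 to 15 occur in NCACS and 16 to 20 in CACS alone.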

Other observations

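Of 6 exocrine pancreas markers, Cpa1, Pnlip, Cel and Prss2 were at 0 counts in 9 of 10 livers and Ctrb1 in 7, and the summed level was at most 1.33 CPM in the NCACS group and 3.77 CPM in the CACS group, nearly all of it Cela2a. The 6 lung epithelium markers summed to 2.02 to 6.89 CPM in NCACS livers and 2.76 to 9.62 CPM in CACS livers. Nkx2-1 was at 0 in 6 livers. Log2 fold changes were above 0 for 2 of the 4 lung markers tested and below 0 for 2, their median being 0.066. Only Sftpa1 passed the threshold, as higher in CACS livers (log2 fold change 1.27, Benjamini-Hochberg adjusted p = 0.0323, edgeR quasi-likelihood). Stellate cell markers summed to 150 to 257 CPM and 161 to 249 CPM, endothelial markers to 130 to 184 CPM and 162 to 212 CPM, and cholangiocyte markers to 33.6 to 52.7 CPM and 20.3 to 49.4 CPM in NCACS and CACS livers, and the ranges overlapped for each list.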
